A study of Mus musculus with 27 samples.

Results

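The region described here is the stretch of mouse chromosome 4 that lies to the left of a deleted domain boundary and carries Glis1 and Dmrtb1, from 107110001 to 107710000 (600 kb, 60 bins of 10 kb, mm10). Its members are all pairs of 2 different bins inside that stretch, 1770 pairs of the 16883852 pairs of different bins that had a contact in any library. The pairs were chosen by position and not by their values. All 1770 had at least 1 contact in every library, and all 1770 passed the filter on low counts used for the test of single pairs.

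The study used CRISPR-Cas9 to remove a boundary between topologically associating domains (TADs), named B396.BOS in the labels, and collected testis from mice. Capture Hi-C was made from 3 wild-type and 3 homozygous deletion samples, which are compared here (9 RNA-seq and 12 ChIP-seq samples complete the series). The labels give no age, strain background, founder number or pooling of animals for these 6 libraries, and nothing in them says that the replicates came from separate animals, so the p-values measure the spread between these samples. Whole testis holds germ cells of all stages together with somatic cells, and the contact counts are a mixture over them; contact counts carry no marker genes against which the tissue label could be checked.

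A TAD is a stretch of chromosome whose parts touch each other more often than they touch the neighbouring stretches. Boundaries between TADs are often bound by CTCF, which stops the loop-extruding cohesin complex, so that removing a boundary can let the flanking domains meet. Contacts inside a domain fall steeply with the distance between the loci, and bins where few contacts cross, measured by a low insulation score, mark weaker divisions within it. Capture Hi-C joins pieces of DNA that are near each other in the nucleus and pulls down, with probes, the joined pieces from selected regions, so the number of contacts of a bin also depends on how well it was captured.

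The side holds 18 annotated genes, of which 12 are protein-coding. From left to right these are Cdcp2 (1 bin inside the side), Tceanc2 (5 bins), Tmem59 (4 bins), Ldlrad1 (3 bins), Lrrc42 (3 bins), Hspb11 (4 bins), Dio1 (2 bins), Yipf1 (5 bins), Ndc1 (6 bins), Glis1 (22 bins), Gm46866 (1 bin, inside the span of Glis1) and Dmrtb1 (4 bins). Hspb11 encodes a subunit of the intraflagellar transport machinery, Dio1 a deiodinase of thyroid hormone, Ndc1 a membrane protein of the nuclear pore, Glis1 a Krüppel-like zinc finger transcription factor and Dmrtb1 a DM-domain transcription factor of male germ cells. The other 6 genes are 4 long non-coding RNAs and 2 pseudogenes. The bins of Glis1 divided the side into 3 segments, namely a gene cluster (107110001 to 107420000, 31 bins), Glis1 itself (107420001 to 107640000, 22 bins) and a Dmrtb1 segment (107640001 to 107710000, 7 bins).

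Promoter windows of 3 genes are shown because the bins that hold them recur in the results below: the Hspb11 start lies in the bin with the lowest homozygous to wild-type ratio, and the starts of Glis1 and Dmrtb1 face each other across the right part of the side. Each runs from 250 bases before to 50 bases after a RefSeq gene start (GRCm38.p6), 5′ to 3′ on the gene's strand. Capitals mark CCCTC, the letters that CTCF is named after, or its reverse complement.
Hspb11: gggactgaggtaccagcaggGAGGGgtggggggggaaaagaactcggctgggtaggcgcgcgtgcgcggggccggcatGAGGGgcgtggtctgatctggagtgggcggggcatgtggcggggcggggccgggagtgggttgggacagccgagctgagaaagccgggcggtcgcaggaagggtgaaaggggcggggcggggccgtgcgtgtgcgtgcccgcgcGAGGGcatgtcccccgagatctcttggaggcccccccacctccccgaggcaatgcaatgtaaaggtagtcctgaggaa
Glis1: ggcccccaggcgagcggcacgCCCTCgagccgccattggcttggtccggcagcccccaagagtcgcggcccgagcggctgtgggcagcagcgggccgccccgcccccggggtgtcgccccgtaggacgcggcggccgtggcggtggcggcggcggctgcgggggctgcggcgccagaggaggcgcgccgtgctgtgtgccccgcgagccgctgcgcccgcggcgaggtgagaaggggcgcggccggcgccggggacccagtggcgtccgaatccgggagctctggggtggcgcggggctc
Dmrtb1: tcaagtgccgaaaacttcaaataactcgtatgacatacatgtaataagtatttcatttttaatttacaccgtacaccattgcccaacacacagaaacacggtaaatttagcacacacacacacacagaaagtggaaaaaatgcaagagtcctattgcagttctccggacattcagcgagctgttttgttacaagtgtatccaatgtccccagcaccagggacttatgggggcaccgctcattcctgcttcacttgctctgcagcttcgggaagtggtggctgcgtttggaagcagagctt
The Hspb11 window (chr4:107253442-107253741, plus strand) is 70.3% G and C and holds 3 matches, all on the minus strand. It shares 258 bases with the window of Lrrc42, which is read from the opposite strand. The Glis1 window (chr4:107434469-107434768, plus strand) is 81.3% G and C and holds 1 match, on the plus strand. The Dmrtb1 window (chr4:107684181-107684480, minus strand, the more upstream of 2 windows that RefSeq gives for the gene, both in the same bin) is 44.7% G and C and holds none. Searched on both strands, CCCTC was present in 9 of 14 windows on the side and in 66.0% of the 32851 windows of the mouse table, so a match is common.

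The targeted interval was checked first. In the 3 wild-type libraries the bin from 107720001 to 107730000 held 11788, 17571 and 15152 contacts, and in the 3 homozygous libraries 28, 31 and 15. The bin after it kept 0.416% of its wild-type share and the bin before it (107710001 to 107720000) kept 74.8%. All 6 libraries therefore match their genotype labels, and the side's right end lies 10 kb from the first emptied bin. The libraries held 5669898 to 7794641 contacts in total, and 3.26% to 4.78% of them lay within the side.

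Replicate 2 stood apart in both genotypes, which touches every level given below. Within-side contacts numbered 201424, 331383 and 259940 in wild-type replicates 1, 2 and 3, and 184688, 367147 and 254153 in homozygous replicates 1, 2 and 3. Set against the contacts of a captured interval on chromosome 2 (115200001 to 117080000, 17578 pairs, no deletion) in the same library, they came to 22.5%, 34.0% and 23.8% in wild type, against 21.8%, 33.6% and 23.8% in homozygotes. The genotypes overlapped, and replicate 2 was high in each. A pair of bins held a median of 47 to 87 contacts per library, from 995 to 1986 for neighbouring bins to 23 to 43 for bins 500 kb or more apart, and the emptiest pair held 2 to 8.

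The amount of contact within the side differed by less than the spread of the libraries. On the log2 scale, within-side contacts relative to the chromosome 2 interval were -1.92 ± 0.32 (SD, n = 3) in wild type, against -1.95 ± 0.33 (SD, n = 3) in homozygotes. The difference was -0.022 (exact permutation test, two-sided, p = 0.8), and single pairings of a homozygous with a wild-type library ran from -0.64 to 0.58. Without both replicate 2 libraries the difference was -0.024, with pairings from -0.13 to 0.081. With 3 against 3 libraries the smallest p that the test allows is 0.1, so a difference is also described by the spread of the libraries and by whether they overlap. The side was also set against the 220 kb right of the deletion (107740001 to 107960000, 231 pairs): left minus right, each relative to the same-distance chromosome 2 contacts, was -0.12 ± 0.034 (SD, n = 3) in wild type, against -0.11 ± 0.022 (SD, n = 3) in homozygotes, a change of 0.015 (exact permutation test, two-sided, p = 0.6).

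Contacts fell with distance at nearly equal slopes. The slope of log2 contact per pair on log2 distance from 20 to 500 kb was -0.86, -0.84 and -0.86 in wild type, against -0.84, -0.87 and -0.85 in homozygotes, so the genotypes overlapped and their means differed by -0.0004 (exact permutation test, two-sided, p = 1). Without both replicate 2 libraries the homozygous slopes were shallower by 0.016, with all pairings above 0. On the chromosome 2 interval the slope changed by 0.011 (p = 0.2, the same exact test).

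**Figure D1:**
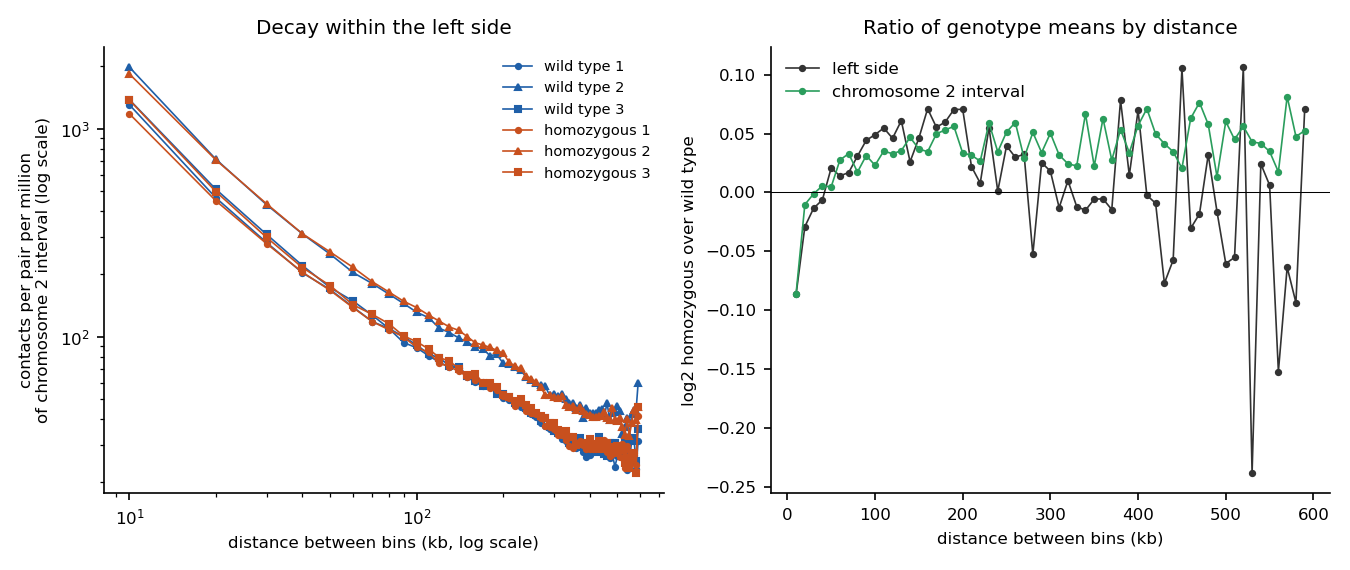
Left, contacts per bin pair within the side, scaled to the contacts of the chromosome 2 interval, against the distance between bins (both axes log), 1 line per library; right, the log2 ratio of homozygous to wild-type means at each distance for the side and for the chromosome 2 interval. The replicate 2 lines of both genotypes lie above the other 4 at nearly all distances, and at 10 kb the side and the interval both lie below 0.

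Near the diagonal, neighbouring bins held a slightly lower share in homozygotes, on chromosome 2 as well as on this side. The slope at short distances lacked overlap on this side only. The slope from 20 to 100 kb was -1.02, -1.04 and -1.06 in wild type, against -0.99, -1.01 and -1.02 in homozygotes, with no overlap and a difference of 0.033 (exact permutation test, two-sided, p = 0.1). The same slope on the chromosome 2 interval changed by 0.018, with overlapping libraries (exact permutation test, p = 0.3). Neighbouring bins took 34.1%, 34.3% and 34.2% of the side's contacts in wild type, against 31.9%, 32.2% and 34.0% in homozygotes, again without overlap (exact permutation test, two-sided, p = 0.1). Of 59 neighbouring pairs of the side, 53 had a lower mean in homozygotes, with a median log2 ratio of -0.076. On the chromosome 2 interval the share of neighbouring bins went from 23.5% ± 0.17 (SD, n = 3) to 22.2% ± 0.84 (SD, n = 3), and 172 of 185 neighbouring pairs were lower, with a median of -0.086. Neighbouring bins thus held a lower share in homozygotes on the side and on a chromosome without the deletion; whether the 2 changes differ was not tested.

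By distance class, the homozygous minus wild-type difference on the log2 scale was -0.059 at 10 to 40 kb, 0.023 at 50 to 100 kb, 0.049 at 110 to 200 kb, 0.022 at 210 to 300 kb, 0.014 at 310 to 400 kb and -0.012 at 410 to 590 kb. The exact permutation p was 0.6 or higher in each class (0.9 after Benjamini-Hochberg adjustment over the 6 classes), and the libraries overlapped in each. Set against chromosome 2 contacts at the same distance, the differences were -0.0090, 0.0019, 0.0085, -0.020, -0.025 and -0.060 in the same order. The class of 10 to 40 kb held 58.3%, 58.8% and 59.2% of the side's contacts in wild type, against 56.5%, 57.1% and 58.4% in homozygotes, 1 homozygous library lying above the lowest wild-type library. Its mean share was lower by 1.47 percentage points on the side and by 1.48 percentage points on the chromosome 2 interval, where the libraries did not overlap.

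No class of distance from the deletion differed by more than the spread of its libraries. Each pair was classed by the distance of its nearer bin from the side's right end, and its contacts were compared with the number expected at that distance from the chromosome 2 interval. From the class nearest the deletion to the farthest, in steps of 100 kb, the homozygous minus wild-type differences were -0.0050, 0.036, -0.0018, -0.018, -0.045 and -0.031 on the log2 scale (exact permutation test, two-sided, p from 0.6 to 1). Relative to the whole side in the same library, they were 0.0027, 0.044, 0.0058, -0.011, -0.037 and -0.023, with overlapping libraries in every class. On this scale replicate 2 still stood apart, above the other libraries of its genotype in the 3 classes nearer the deletion and below them in the 3 farther ones. In the class of 100 to 200 kb, the relative level was -0.13, 0.061 and -0.098 in wild type, against -0.070, 0.085 and -0.051 in homozygotes, and the groups overlapped.

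**Figure D2:**
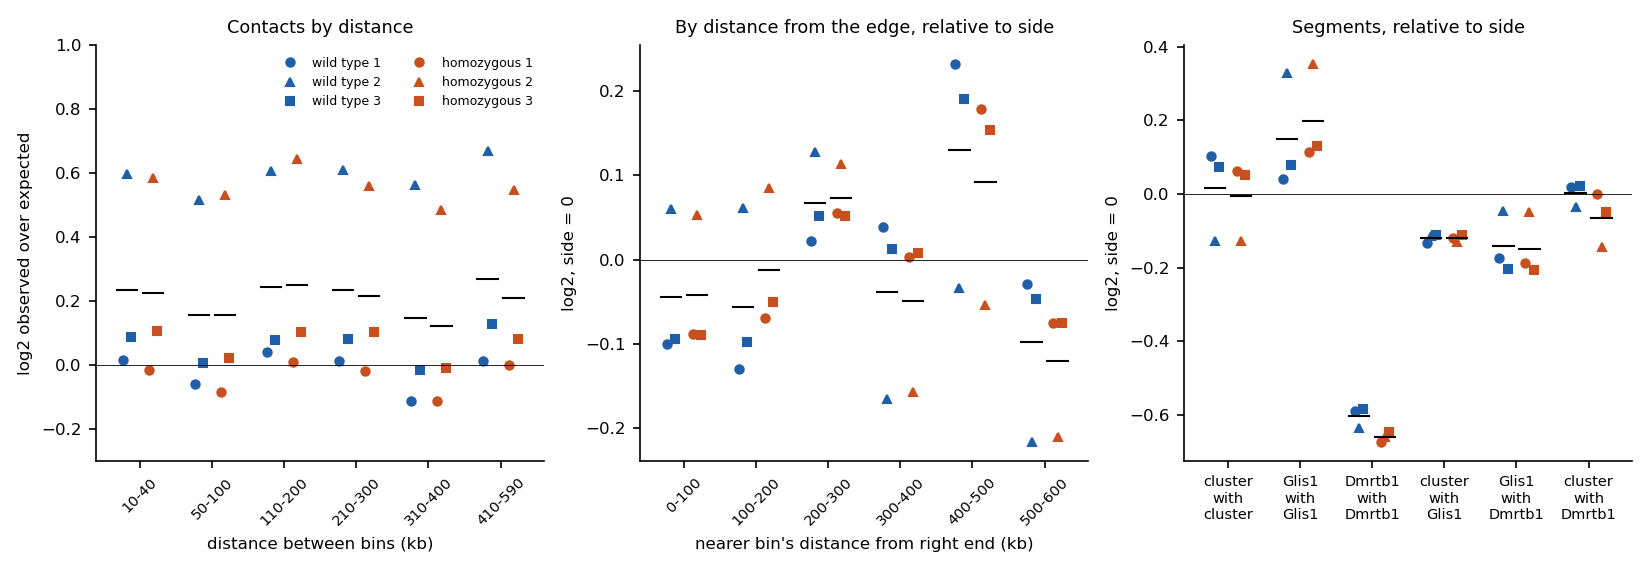
Log2 contacts per library (blue wild type, orange homozygous, marker shape for the replicate, bars for genotype means) by distance between bins relative to chromosome 2 at the same distance, by distance of the nearer bin from the side's right end relative to the whole side, and by segment relative to the whole side. Replicate 2 of both genotypes sits apart in most classes, and in the Dmrtb1 segment with itself the homozygous libraries lie below the wild-type ones.

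Crossing the classes of distance with those of distance from the right end gave 26 classes of at least 10 pairs, with differences in the share of the side's contacts from -0.072 to 0.10 on the log2 scale. In 5 of the 26 the genotypes did not overlap, all 5 higher in homozygotes, against a background of 18.3% over these and the same classes in 3 windows of 600 kb on chromosome 2. Those windows had 14 of 78 such classes, 12 of them higher in homozygotes, so the count on the side is near the background. Of those 5, the class with the largest difference of means joined bins 110 to 200 kb apart whose nearer bin lay 100 to 200 kb from the right end, -5.19 ± 0.037 (SD, n = 3) in wild type, against -5.10 ± 0.047 (SD, n = 3) in homozygotes.

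The edge bin itself (107700001 to 107710000, the right end of the Dmrtb1 span, shared with 2 long non-coding RNAs) held 4545, 6745 and 5736 contacts with the rest of the side in wild type, against 4145, 7317 and 5633 in homozygotes. As a share of the side's contact ends this was 1.13%, 1.02% and 1.10% against 1.12%, 1.00% and 1.11%, and the groups overlapped (log2 difference -0.011, exact permutation test, p = 0.7). Its contacts with bins 110 to 200 kb away numbered 586, 968 and 754 in wild type, against 595, 1110 and 786 in homozygotes. As a share of the side these were higher in homozygotes without overlap, by 0.096 on the log2 scale (exact permutation test, two-sided, p = 0.1); in the other 5 distance classes of the edge bin the groups overlapped. This is 1 class of 6, against 4.17% of 24 such classes over the side and the end bins of 3 windows of 600 kb on chromosome 2. That background counts the edge bin's own class, and in the chromosome 2 windows 0 of 18 classes lacked overlap. All pairs 110 to 200 kb apart also had a higher mean share in homozygotes, by 0.071 on the side and, without overlap, by 0.046 on the chromosome 2 interval (log2). The last 5 bins together (107660001 to 107710000) showed no class without overlap.

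The 60 bins differed in how many contacts they took, and the genotypes followed one profile. The share of the side's contact ends ran from 0.688% ± 0.019 (SD, n = 3, wild type) in the bin from 107660001 to 107670000, between Glis1 and Dmrtb1, to 2.21% ± 0.20 (SD, n = 3) in the bin from 107600001 to 107610000, inside Glis1. The bins from 107660001 and from 107690001 held under 50% of the side's median. None of the 60 bins had a share that did not overlap between the genotypes (0 of 60), against 5.56% of the 270 bins of the side, the right side and the chromosome 2 interval. The log2 ratio of homozygous to wild type ran from -0.13 to 0.099, and 59 of 60 bins lay within 0.1 of 0.

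The bin with the lowest ratio holds the divergent starts of Lrrc42 and Hspb11 (107250001 to 107260000). Its share was 2.37%, 1.93% and 2.28% in wild type, against 2.18%, 1.81% and 2.00% in homozygotes, which overlap (exact permutation test, p = 0.3). The high end was a run of 3 bins in the middle of Glis1 (107500001 to 107530000), with log2 ratios of 0.095, 0.096 and 0.099. In the last of them the share was 1.32%, 1.58% and 1.40% in wild type against 1.47%, 1.65% and 1.47% in homozygotes. Without both replicate 2 libraries, 31 of 60 bins did not overlap, 16 higher and 15 lower, against 42.6% of all 270 bins.

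**Figure D3:**
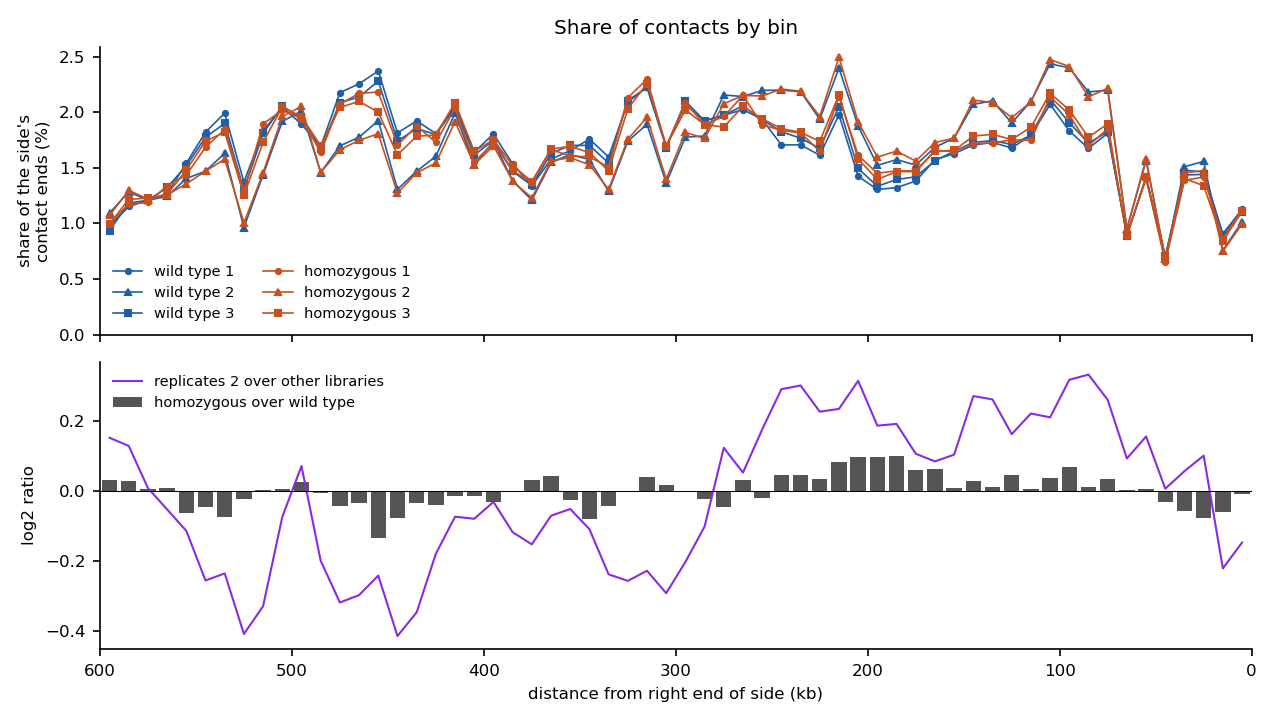
Top, the share of the side's contact ends in each 10 kb bin per library against the distance from the right end; bottom, the log2 ratio of homozygous to wild type (bars) and of the replicate 2 libraries to the other 4 (line). The line departs from 0 much further than the bars, up in the Glis1 segment and down in the gene cluster.

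The replicate 2 profile divided the side at Glis1 in both genotypes. The Glis1 segment took 37.8%, 44.4% and 38.6% of contact ends in wild-type replicates 1, 2 and 3 and 39.3%, 44.7% and 39.6% in homozygous ones, and the gene cluster took 54.2%, 47.6% and 53.5% against 53.0%, 47.4% and 52.7%. In 20 of 22 Glis1 bins replicate 2 was the highest of its genotype in both genotypes, and in 27 of 31 bins of the gene cluster it was the lowest in both. What sets replicate 2 apart was not tested; the labels name no batch.

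The share of the Dmrtb1 segment, 1 of the 3, did not overlap between the genotypes. The background was 8.33% of 12 segments, counting the side and the same layout over 3 windows of 600 kb on chromosome 2. In the chromosome 2 windows, 0 of 9 segments lacked overlap. The Dmrtb1 segment took 7.96%, 8.04% and 7.90% of contact ends in wild type, against 7.74%, 7.89% and 7.69% in homozygotes, lower by 0.19 percentage points (exact permutation test, two-sided, p = 0.1). The nearest libraries of the 2 genotypes differed by -0.0019 percentage points, homozygous minus wild type. Both bins under 50% of the side's median lie in this segment. Contacts between its 7 bins, relative to the whole side and to the number expected from chromosome 2, were -0.59, -0.63 and -0.58 on the log2 scale in wild type, against -0.67, -0.66 and -0.65 in homozygotes. This difference of -0.057 had an adjusted p of 0.6 over the 6 kinds of segment pair (exact permutation test), and on the scale without the whole-side term the libraries overlapped (difference -0.065, p = 0.6). Contacts of the gene cluster with the Dmrtb1 segment, on the same relative scale, were 0.019, -0.035 and 0.022 in wild type, against -0.0011, -0.14 and -0.048 in homozygotes, which overlap. The other 4 kinds of segment pair overlapped too, with relative differences from -0.021 to 0.049.

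On the mean of the libraries, the side had a weak internal division at Ndc1 and a contact-rich stretch in Glis1. The insulation score used here is the log2 mean contact between the 100 kb left and the 100 kb right of a bin, less the mean of the side, and 40 bins had full windows. Averaged over the 6 libraries it ran from -0.30 to 0.28. On the chromosome 2 interval it ran from -1.38 to 0.61, but over 168 bins of a longer stretch, so the 2 ranges are not like for like. The side's lowest bin on the mean of the libraries was 107360001 to 107370000, between the end of Yipf1 and the start of Ndc1, at -0.25, -0.39 and -0.25 in wild type, against -0.28, -0.40 and -0.24 in homozygotes. The mean was still -0.28 at 107410001 to 107420000, the last bin of Ndc1 next to Glis1. In wild-type replicates 1 and 3 and homozygous replicate 3 this bin was below the one from 107360001, at -0.27, -0.26 and -0.27. The peak of the mean was in the middle of Glis1 (107530001 to 107540000), at 0.14, 0.43 and 0.19 in wild type, against 0.23, 0.46 and 0.23 in homozygotes. A lower peak lay over Hspb11 (107260001 to 107270000, mean 0.13) and a local rise inside Ndc1 (107400001 to 107410000, mean -0.14). In wild-type replicate 1 the Hspb11 bin stood above the Glis1 one, at 0.25 against 0.14. The lowest values at the 2 ends of the scored stretch (107210001 and 107600001) were set by where full windows end.

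**Figure D4:**
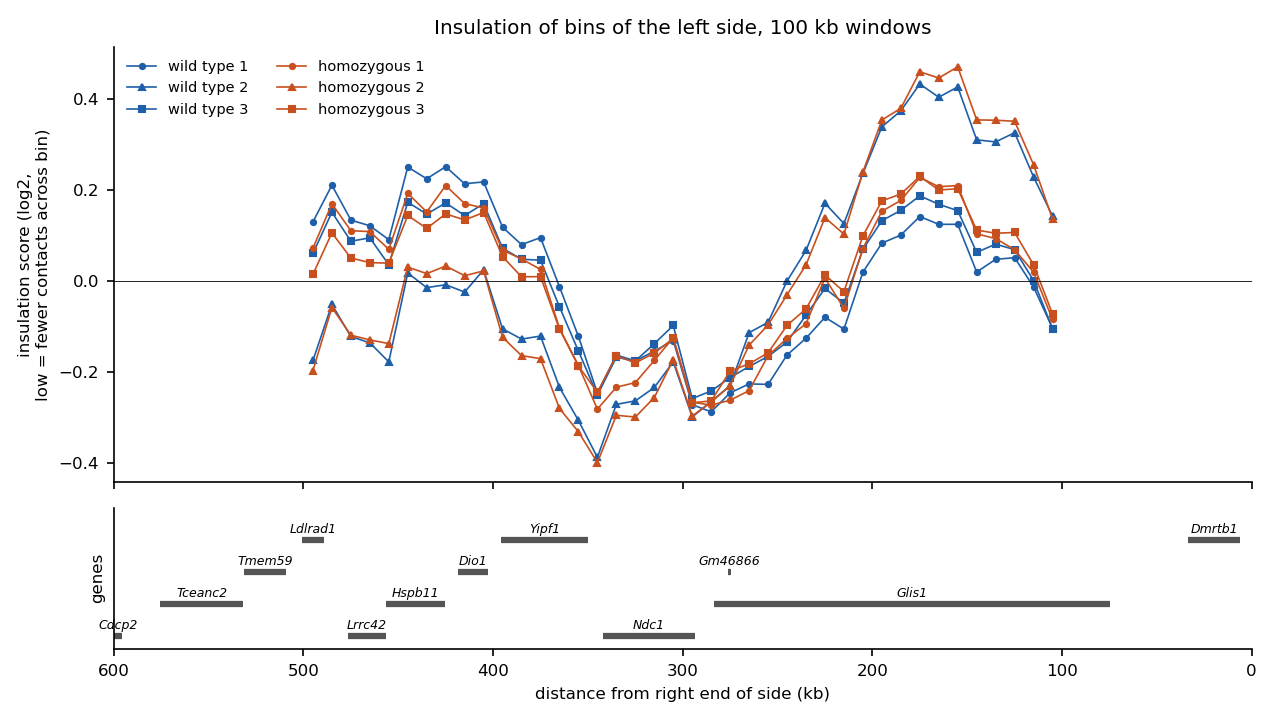
Insulation score of each bin per library (100 kb windows, log2, 0 is the side's mean) against the distance from the right end, with the protein-coding genes below. All 6 lines dip over the Yipf1 to Ndc1 stretch and rise over Glis1, and replicate 2 of both genotypes has the wider swing.

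No bin's insulation passed the test. By limma with Benjamini-Hochberg adjustment, 0 of 40 bins of the side were called (0% of the 210 bins tested), the lowest adjusted p was 0.999, and 0 of the 40 had an unadjusted p under 0.05. Differences ran from -0.062, inside Yipf1, to 0.059, in Glis1. With windows of 50 kb the Ndc1 dip stayed at the same bin (mean -0.42), further dips appeared at 107170001 to 107180000 where Tceanc2 and Tmem59 meet (mean -0.40), at the Lrrc42 and Hspb11 bin (107250001 to 107260000, mean -0.046) and within Glis1 (107490001 to 107500000, mean -0.036), and the mean was lowest at the last scored bin (107650001 to 107660000, -0.51), again next to the limit of the windows.

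No single pair passed the test. With edgeR's quasi-likelihood test on counts, scaled to the chromosome 2 interval and adjusted by Benjamini-Hochberg over the captured region of chromosome 4, 0 of the 1770 pairs were called, against 0.0034% of 29378 pairs tested. At an unadjusted p under 0.05 edgeR gave 0 of 1770 (2.25% of all pairs tested), and DESeq2 called 0 and had 7 at that level (0.395% of the side, beside 0.779% of all pairs it tested). On chromosome 2, 0 of 17109 pairs were called by edgeR. The median log2 fold change of the side's pairs was 0.015, beside 0.033 over all pairs tested. The standard error of single pairs was large in this fit, for example 0.30 on the log2 scale for the neighbouring bins from 107250001 and 107260001, which held 1026 to 1671 contacts per library. With such errors, 0 pairs at an unadjusted p under 0.05 does not show that the pairs were alike. With library sizes from the left side, edgeR gave 63 at that level (3.56%, beside 4.73% of all pairs tested) and called 0.

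Glis1 covers 22 of the side's 60 bins, so many pairs have an end in it. That share was not counted, so the counts of pairs with an end in Glis1, here and below, show nothing particular to Glis1. Of the 10 pairs 50 kb or more apart that stood highest over the side's own mean at their distance, 8 had an end in Glis1 bins. Relative to that mean the pair joining the first bin of the Glis1 span (107420001 to 107430000) with 107650001 to 107660000, an interval between Glis1 and Dmrtb1 with no annotated gene, stood at 1.03, 1.10 and 1.05 on the log2 scale in wild type, against 1.38, 1.42 and 1.19 in homozygotes. Its counts were 83, 143 and 106 against 105, 205 and 121. The genotypes did not overlap on the relative scale, and the edgeR fold change was 0.34 ± 0.32 (SE) with an adjusted p of 0.994. This pair was named by its level over all 6 libraries and not by its difference.

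A further 6 of the 10 joined bins inside Glis1: the bin from 107630001, its last, with 107440001, 107450001, 107470001 and 107490001, and the bin from 107490001 with 107600001 and 107610001. Their mean log2 level over the 6 libraries ran from 0.92 to 1.10. The remaining 3 were Ndc1 (107410001) with 107650001, the Tceanc2 and Tmem59 bin (107170001) with the Lrrc42 and Hspb11 bin (107250001), and the Glis1 start bin (107430001) with the edge bin. The Tceanc2 and Tmem59 to Lrrc42 and Hspb11 pair had counts of 221, 289 and 240 in wild type, against 181, 265 and 208 in homozygotes, with an edgeR log2 fold change of -0.23 ± 0.31 (SE).

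This ranking changed with balancing. In matrices balanced by iterative correction within the side, which equalises the total of each bin, 2 of the 10 pairs were among the 10 highest of 1540, and the lowest of them ranked 322. The 2 were the Glis1 start bin with the edge bin, which ranked 1 (1.13 ± 0.30 in wild type, against 1.12 ± 0.066 in homozygotes, SD, n = 3, log2), and 107420001 with 107650001, which ranked 4 (0.89 ± 0.020 and 1.19 ± 0.11). Of the 10 highest when balanced, 6 had an end in Glis1 bins. All of the 10 except 107420001 with 107650001 had the edge bin as an end, with partners in Yipf1, Ndc1 or Glis1. A high rank of the edge bin was thus not particular to its pair with the Glis1 start bin. The edge bin has neighbours on 1 side only in this matrix. The Glis1 start bin with the edge bin had counts of 64, 134 and 64 in wild type, against 62, 119 and 78 in homozygotes.

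Dmrtb1 is read from the minus strand and its annotated span reaches 107704011, so the 5′ end of the span lies in the edge bin. The start bin used here is that of its RefSeq promoter windows. The pair of the Glis1 start bin with the Dmrtb1 start bin (107680001 to 107690000), 250 kb apart, had 77, 126 and 85 contacts in wild type, against 62, 154 and 59 in homozygotes. Relative to the side's mean at that distance it stood at 0.99 ± 0.11 (SD, n = 3, log2) and 0.75 ± 0.44 (SD, n = 3), and the groups overlapped. Its edgeR log2 fold change was -0.12 ± 0.32 (SE).

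The 5 pairs with the smallest p in each direction joined bins 190 to 390 kb apart, and none came near the threshold after adjustment. Of those higher in homozygotes, 4 had an end in Glis1, which covers 22 of the side's 60 bins and so is an end of many pairs. An example is Lrrc42 (107230001) with mid-Glis1 (107520001) at 21, 33 and 25 contacts against 35, 43 and 41. Of those lower, 4 ended in bins under 50% of the side's median, for example Yipf1 (107320001) with the Dmrtb1 bin from 107690001 at 22, 24 and 30 against 11, 22 and 16. These counts are small, and a change of a few contacts moves the ratio.

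For genes of the side, the authors' deposited tables of expression regressed on genotype list 3. In the authors' deposited table of nearby genes, Dmrtb1 has a slope of 81.6 with a p-value of 0.0229 and an FDR of 0.137. In the authors' deposited table Glis1 has a slope of 0.085 with an FDR of 0.991. Tceanc2 is in the authors' deposited table of distant genes, with a slope of 1.37 and an FDR of 0.634. How expression was scaled and how genotype was coded are not given in the sources used here, so the slopes carry no direction or size that can be set beside the contacts.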

How the data were processed

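Capture Hi-C libraries (Arima kit and SureSelect enrichment, per the labels' protocols) of 3 wild-type and 3 homozygous testis samples were used. The authors deposited contact counts per pair of 10 kb bins, without normalization; the submitters' processing notes name mm10, and the aligner and filters are not given in the sources used here. The authors' deposited regression tables give slopes as a score and p-values with FDR. The members and lists were chosen with earlier results of these data known. Contacts were scaled to the chromosome 2 interval of the same library, or to its mean at the same distance. Single values were compared by two-sided exact permutation tests over 20 arrangements, with Benjamini-Hochberg adjustment. edgeR 4.0.16 (quasi-likelihood, threshold 0.05) and DESeq2 1.42.0 tested the pairs that averaged 5 or more contacts, and limma 3.58.1 tested insulation. The edgeR and limma fits were also run on simulated data. The counts simulated for edgeR held no replicate 2 shift, so they do not show what that fit can find in these libraries. Deleted bins were left out. Named were all protein-coding genes, the insulation extremes within 5 bins on either side, the 10 pairs 50 kb or more apart with the highest observed over expected (pseudocount 0.5), the 5 pairs with the smallest p in each direction, and the edge bin. Bins named for their ratio, the Glis1 to Dmrtb1 start pair and the Dmrtb1 segment values were singled out after seeing the values. Counting error limits pairs of few contacts: the emptiest held 2 to 8. RNA-seq and ChIP-seq libraries were not analysed here. Same-numbered libraries were not taken as pairs.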

Additional observations from a re-analysis of the deposited data

How the results depend on the processing

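Of 277 recomputed values over 23 results, 262 stayed on the same side of the description used (groups without overlap and a difference above the larger SD) and within 1 SD, or, for counts of calls, at the same count. The SDs were larger than the differences, so this count does not show that the differences are stable. For example, the within-side difference went from -0.022 to 0.16 without wild-type replicate 2 and still counted as the same. Replicate numbers come from the labels and nothing says that they mark a shared animal or day; deviations of same-numbered libraries over 1721 pairs correlated at 0.17, 0.45 and 0.065, so the numbers were not taken as pairs. With the replicate block (differences of same-numbered libraries, exact sign-flip test, smallest p 0.25), all 3 differences had 1 sign for contacts at 10 to 40 kb (-0.059), 50 to 100 kb (0.023) and 110 to 200 kb (0.049), for 100 to 200 kb (0.036) and 400 to 500 kb (-0.045) from the edge, for left minus right (0.015), for Glis1 with itself (0.042), Dmrtb1 with itself (-0.065) and the gene cluster with Dmrtb1 (-0.074); they also had 1 sign, with a mean below their SD, for 500 to 600 kb from the edge (-0.031) and the gene cluster with itself (-0.029). In edgeR the replicate block called 2 of 1770 pairs (0.116% of all pairs tested), both lower: the Lrrc42 and Hspb11 bin with its left and its right neighbour. Added after seeing the data, the block with library sizes from the left side called 2 of 1770 (0.167% of all pairs tested), with TMM 8 of 1770 (0.116%) and with bins of 20 kb 4 of 435 (0.48%), all lower. Without the block, every other setting run called 0 pairs, and 0 bins were called for insulation in any setting run. Added after seeing the data, leaving out both replicate 2 libraries gave a decay slope difference of 0.016 without overlap, and setting segments against the whole side gave -0.057 for Dmrtb1 with itself. Leaving out 1 library turned the sign of the within-side difference (-0.21 to 0.16), and differences ranged from -0.24 to 0.23 by distance class, from -0.23 to 0.28 by distance from the edge and from -0.25 to 0.32 by segment; in all 19 of these results the lowest value came without homozygous replicate 2 and the highest without wild-type replicate 2. 3 against 3 libraries cannot give a p below 0.1, and the within-side level had an SD of 0.32 and 0.33 on the log2 scale, above the difference in every distance class.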
